A study of Mus musculus with 4 samples.

Results

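The 9 genes described here encode 5 bone morphogenetic protein (BMP) ligands, *Bmp2*, *Bmp3*, *Bmp4*, *Bmp5* and *Bmp7*, and 4 secreted antagonists of the family, *Grem1*, *Nog*, *Chrdl1* and *Fst*. They were chosen by name from the 28692 genes listed, and their level was followed across the cell groups of the embryonic mouse intestine. The cells came from untreated E12.5 embryos of the strain EYFP (C57BL/6), which carry a yellow fluorescent protein in all cells. The 4 libraries were LI replicates 1 and 2 from the large intestine with the cecum and SI replicates 1 and 2 from the small intestine. Live cells had been sorted as positive for β1 integrin and YFP while cells with CD45, EpCAM, CD31 or Ter119 had been left out, and each region was taken in 2 experiments that pooled several embryos, so a library is a pool and not 1 animal. The titles give the embryonic day, while the tissue labels name the lamina propria, a layer of the mature gut, and the titles were followed. No label ties a library number to an experiment, and p-values over libraries measure only the spread between these pools.

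BMPs are secreted dimers of the TGFβ superfamily that bind pairs of type I and type II serine/threonine kinase receptors, after which SMAD1, SMAD5 and SMAD9 enter the nucleus with SMAD4 and raise targets such as the *Id* genes. Antagonists hold the ligands in the extracellular space, where gremlin (*Grem1*), noggin (*Nog*) and chordin-like 1 (*Chrdl1*) bind BMPs, and follistatin (*Fst*) binds activins foremost and some BMPs. In the gut, mesenchymal BMPs act on the epithelium and on the mesenchyme itself, and a balance of ligands and antagonists is known to pattern villi, crypts, smooth muscle layers and enteric neurons.

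In all, 22094 cells passed the filters, of which LI gave 10709 and SI 11385. A unique molecular identifier (UMI) counts 1 captured transcript, and the median number of UMIs per kept cell was 4220.5 in LI replicate 1 and between 8382 and 8829 in the other 3 libraries. Between 8 and 15 barcodes were shared by any pair of libraries, at most 0.221% of the smaller one. Cells were clustered without the 9 genes, without 49 other BMP pathway genes and without the *Hox* genes, and clusters were collected into 5 groups. These were 1316 mesothelial cells, 5124 smooth muscle cells (SMC), 956 neural cells, 2055 cells of a cluster with *Adamdec1* (Adamdec1 MSC, for mesenchymal stromal cells) and 10627 other mesenchymal cells (other MSC). The remaining 2016 cells lay in clusters that the markers did not name.

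The names were checked against 10 markers per class. Mesothelial markers summed to between 2312 and 2519 counts per 1e6 UMIs (CPM) in the libraries of the mesothelial group and to at most 138 CPM in the other 4 groups. Neural markers, of enteric progenitors and neurons that the sort did not remove, summed to between 1739 and 2488 CPM in the neural group and to at most 35.2 CPM in the other 4 groups. SMC markers did not separate as sharply, since they ranged from 1830.5 to 10789 CPM in the SMC group and reached 2285 CPM in Adamdec1 MSC and 1920 CPM in other MSC. *Adamdec1*, a metalloprotease gene of intestinal stroma, averaged 29.1 CPM in its cluster and at most 1.85 CPM in any other. This cluster expressed *Pdgfra* in 64.7% of cells, but *Rgs5*, a pericyte marker, was among its 10 leading genes, and so was *Bmp3*, whose level there is therefore a description of the group and not a finding.

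In the mm10 genome, *Bmp2* (ENSMUSG00000027358) lies on chromosome 2 at 133552159 to 133562885 and *Bmp7* (ENSMUSG00000008999) on the same chromosome at 172868012 to 172940321. *Bmp3* (ENSMUSG00000029335) lies on chromosome 5 at 98854415 to 98884396, *Bmp4* (ENSMUSG00000021835) on chromosome 14 at 46383520 to 46390669 and *Bmp5* (ENSMUSG00000032179) on chromosome 9 at 75775364 to 75900310. Among the antagonists, *Grem1* (ENSMUSG00000074934) lies on chromosome 2 at 113746164 to 113758646 and *Nog* (ENSMUSG00000048616) on chromosome 11 at 89300638 to 89302332. *Chrdl1* (ENSMUSG00000031283) lies on chromosome X at 143285674 to 143394262 and *Fst* (ENSMUSG00000021765) on chromosome 13 at 114452290 to 114458951. Exons of *Bmp4* and *Bmp5* overlap antisense transcripts (*Gm15217* and *Gm26903*), and none of the 9 genes shares exons with another gene on its own strand.

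The ligands separated by cell group. *Bmp3*, *Bmp4* and *Bmp5* were highest in Adamdec1 MSC, where all 4 libraries lay above all 16 values of the other groups, as did 0.477% of the 12581 genes with a mean of at least 1 CPM. *Bmp7* was highest in neural cells, again without overlap, against a background of 6.11% of genes for that group. *Bmp2* had its highest mean of the 5 groups in the mesothelium, but 1 library of Adamdec1 MSC reached into its range. The order leaves out the unnamed clusters, in which *Bmp2* (cluster 8), *Chrdl1* (cluster 9) and *Fst* (cluster 8) had higher means than in any of the 5 groups. Since clusters are made from the genes of the cells they hold, these levels are given as descriptions, with no test. CPM values are scaled to the UMIs of that group and library, so only the same gene is compared between groups.

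*Bmp4*, a ligand that hedgehog signalling from the epithelium induces in gut mesenchyme, stood at 88.4 and 74.4 CPM in Adamdec1 MSC of LI replicates 1 and 2 and at 82.3 and 89.9 CPM in those of SI replicates 1 and 2. The mesothelium followed with 65.3 and 56.2 CPM in LI and 30.3 and 30.6 CPM in SI. Other MSC had 42.9 and 48.0 CPM in LI and 20.1 and 19.3 CPM in SI. *Bmp4* therefore differed little between libraries in Adamdec1 MSC (83.8 ± 7.03 CPM, SD, n = 4), whereas both LI libraries lay above both SI libraries in mesothelium and other MSC. SMC held 32.7, 16.7, 15.9 and 5.25 CPM over LI replicates 1 and 2, then SI replicates 1 and 2, and neural cells had 8 *Bmp4* UMIs in LI and 0 in SI. On the log2(CPM + 1) scale, Adamdec1 MSC exceeded the mesothelium by 0.94 ± 0.61 (SD over 4 libraries, higher in 4 of 4), and the ranges of mesothelium, other MSC and SMC overlapped along the order.

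*Bmp5*, a close relative of *Bmp7*, stood at 41.0 and 81.1 CPM in Adamdec1 MSC of LI and at 42.8 and 57.1 CPM in those of SI. In SMC it measured 30.9 and 40.0 CPM in LI and 25.0 and 28.5 CPM in SI, which put SMC second in every library. The nearest values, 41.0 and 40.0 CPM, rested on 96 and 316 UMIs and lay within counting error of each other. The difference between the first and the second group was 0.78 ± 0.28 on the log2 scale (higher in 4 of 4 libraries). Between cells gated on markers the order turned, with a mean of −0.30 for Adamdec1 MSC over SMC, where the 4 gated Adamdec1 MSC of LI replicate 1 held no *Bmp5* UMI and the SMC gate took in 946 cells of the Adamdec1 MSC cluster. Other MSC ranged from 18.4 to 30.5 CPM and overlapped with SMC, the mesothelium ranged from 6.63 to 15.9 CPM below both, and neural cells held at most 0.662 CPM. *Bmp5* was not called between regions in any of the 4 groups where it was tested.

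*Bmp3*, which binds activin receptors and is known to oppose other BMPs, measured 15.0 and 27.9 CPM in Adamdec1 MSC of LI and 38.0 and 53.3 CPM in those of SI. Both SI libraries lay above both LI libraries. SMC came next with 2.42 to 5.46 CPM, and other MSC had 1.62 to 3.33 CPM. The step from Adamdec1 MSC to SMC was 2.66 ± 1.00 on the log2 scale (higher in 4 of 4 libraries). In the mesothelium 4 *Bmp3* UMIs were counted in LI and 0 in SI, where 0 UMIs allow up to 1.36 and 1.91 CPM, and neural cells held 1 UMI in all. Adamdec1 MSC, which made up between 7.34% and 10.8% of the kept cells of a library, held 29.9% and 52.5% of its *Bmp3* UMIs in the LI libraries and 71.9% and 72.6% in the SI libraries. Other MSC held 42.7% and 15.0% in the LI libraries, and so more than Adamdec1 MSC in LI replicate 1, and 13.1% and 7.37% in the SI libraries.

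*Bmp7* showed another order. Neural cells held 19.0 and 26.0 CPM in LI and 39.6 and 48.7 CPM in SI, above Adamdec1 MSC (8.12, 7.53, 13.5 and 18.3 CPM over LI replicates 1 and 2, then SI replicates 1 and 2) by 1.41 ± 0.22 on the log2 scale in 4 of 4 libraries. The gap to the highest Adamdec1 MSC value was narrow, with 19.0 CPM in the lowest neural library against 18.3 CPM, which is within counting error. Mesothelium (8.36 to 14.6 CPM), other MSC (5.81 to 14.7 CPM) and SMC (3.14 to 8.87 CPM) overlapped with Adamdec1 MSC and with each other. It was the only ligand of the 5 whose neural level lay above that of the other 4 groups, while *Bmp2*, *Bmp4* and *Bmp5* were lowest there.

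*Bmp2*, a ligand close in sequence to *Bmp4*, was the sparsest after filtering, with 511 UMIs in the kept cells. The mesothelium held 9.29, 12.3, 10.4 and 11.5 CPM over LI replicates 1 and 2, then SI replicates 1 and 2, from 18 to 31 UMIs per library. Adamdec1 MSC had 2.14, 11.1, 1.35 and 1.94 CPM, so that LI replicate 2 alone accounted for the overlap with mesothelium. Mesothelium was higher than Adamdec1 MSC in 4 of 4 libraries, by 1.55 ± 0.97 on the log2 scale. SMC and other MSC lay between 0.905 and 3.79 CPM and did not separate from each other. In cluster 8, which was unnamed, *Bmp2* stood at 2.03 and 35.3 CPM in LI and at 0 and 25.7 CPM in SI. Its leading genes included *Pf4*, *Afp* and *Alb*, but these were found in at most 1.10% of its 456 cells. Of the other leading genes, *Shisa3* was found in 19.7% and *Foxd1* in 11.8% of its cells, and *Pdgfra* in 41.7%. Unnamed clusters held between 4.60% and 31.6% of a library's *Bmp2* UMIs, and the mesothelium between 13.5% and 35.0%. Other MSC held more than the mesothelium in each library, between 26.3% and 47.1%. They made up between 41.0% and 55.8% of the kept cells, and the mesothelium between 2.74% and 10.5%.

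**Figure D1:**
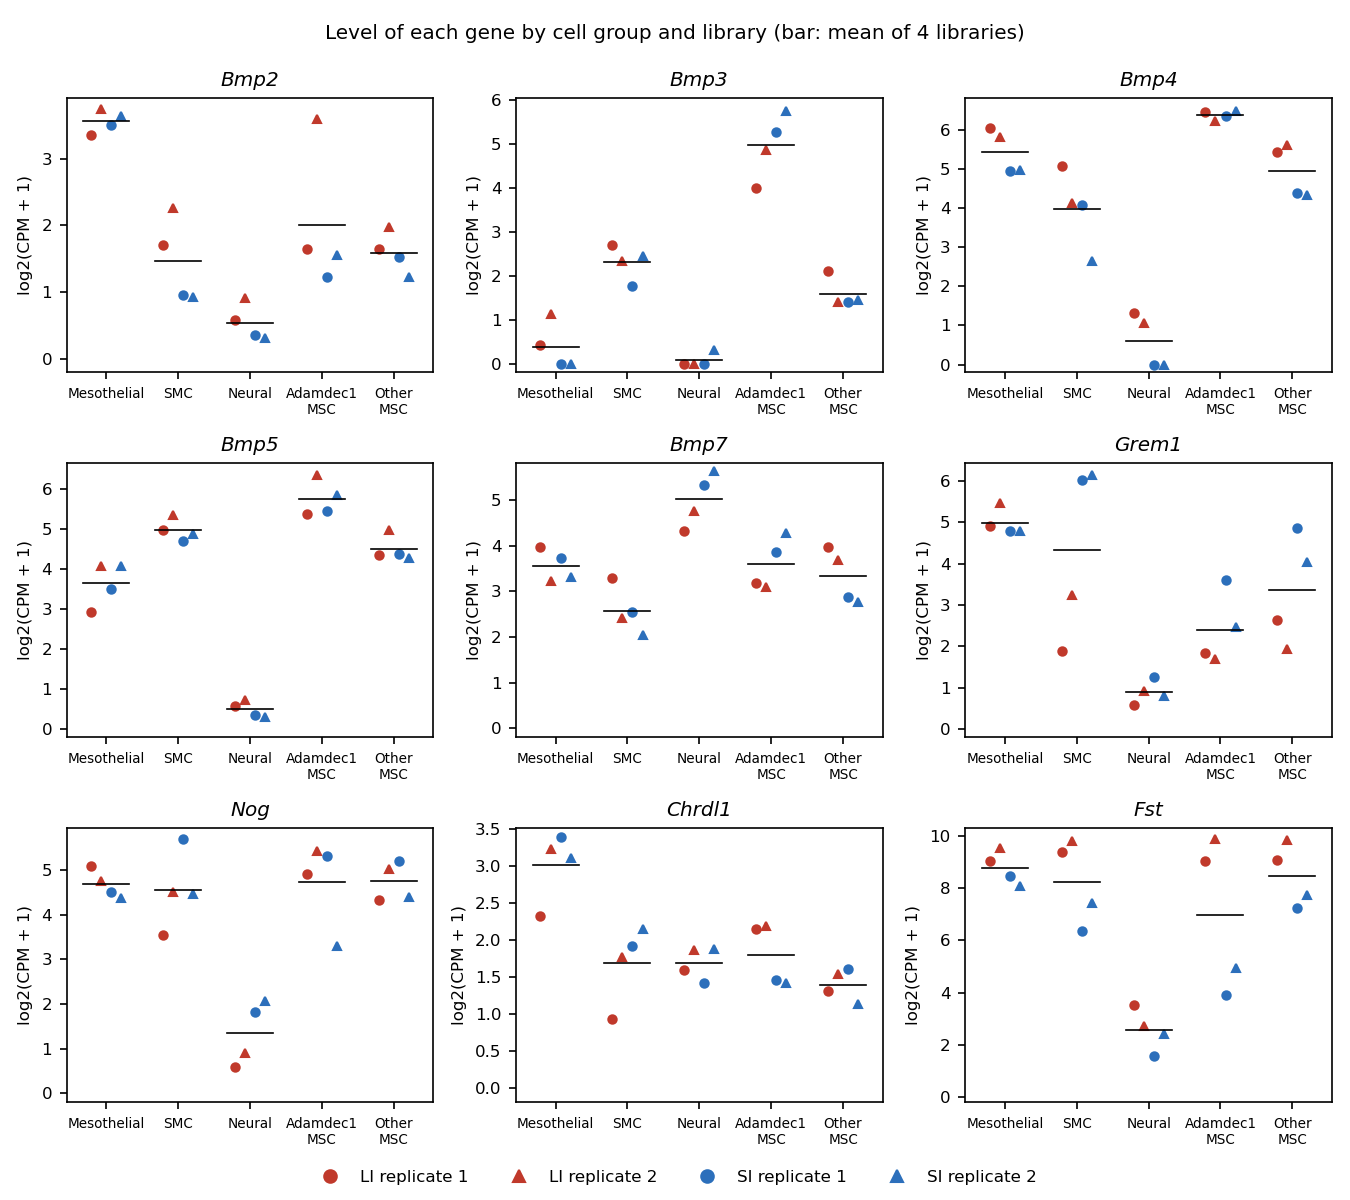
Level of the 9 genes as log2(CPM + 1) (vertical axis) in the 5 cell groups (horizontal axis), with 1 point per library (red, LI; blue, SI; circles, replicate 1; triangles, replicate 2) and a bar at the mean of 4 libraries. *Bmp3*, *Bmp4* and *Bmp5* stand highest in Adamdec1 MSC, *Bmp7* in neural cells and *Chrdl1* in mesothelium, while *Grem1* and *Fst* split by region within SMC.

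Among the antagonists, *Chrdl1* was the one whose mesothelial libraries all lay above the other 16 values, against 6.63% of genes for that group. Its levels were low, with 3.98 and 8.36 CPM in LI and 9.49 and 7.65 CPM in SI, from 12 to 21 UMIs per library. The next value was 3.55 CPM, in Adamdec1 MSC of LI replicate 2, from 16 UMIs, which lay within counting error of the lowest mesothelial value. No other neighbours separated in the order of *Chrdl1*, in which Adamdec1 MSC, SMC, neural cells and other MSC had means between 1.65 and 2.59 CPM.

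*Grem1*, the antagonist of stroma beneath crypts and of muscle in the adult gut, had 2 high groups. The mesothelium held 29.2 and 43.0 CPM in LI and 26.7 and 26.8 CPM in SI. SMC held 2.73 and 8.47 CPM in LI and 63.7 and 70.5 CPM in SI. The order of these groups therefore depended on the region, with mesothelium above SMC in both LI libraries and below it in both SI libraries. Other MSC had 5.19 and 2.80 CPM in LI and 28.2 and 15.4 CPM in SI, Adamdec1 MSC between 2.22 and 11.2 CPM, and neural cells at most 1.39 CPM. Of all *Grem1* UMIs of a library, SMC held between 6.42% and 71.2%, the mesothelium between 2.56% and 47.1% and other MSC between 21.1% and 41.7%. Of the kept cells, SMC made up between 15.7% and 31.6%, the mesothelium between 2.74% and 10.5% and other MSC between 41.0% and 55.8%.

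*Nog*, which blocks BMP2 and BMP4 in particular, did not separate among the 4 groups outside the neural cells, whose means lay between 25.1 and 29.7 CPM. Within groups the libraries were far apart. SMC held 10.7 and 21.9 CPM in LI and 50.4 and 20.997 CPM in SI, and Adamdec1 MSC held 29.1, 41.9, 38.9 and 8.88 CPM over LI replicates 1 and 2, then SI replicates 1 and 2. SI replicate 1 was thus the highest SMC library and SI replicate 2 the lowest Adamdec1 MSC library. Neural cells had between 0.501 and 3.17 CPM.

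*Fst* was low in neural cells. In every group both LI libraries lay above both SI libraries, although *Fst* was not called between regions in mesothelium or neural cells. In LI its level was similar across the mesenchymal groups, with 528 and 942 CPM in Adamdec1 MSC, 538 and 908 CPM in other MSC, 656 and 893 CPM in SMC and 520 and 734 CPM in mesothelium. In SI the groups parted, with 349 and 268 CPM in mesothelium, 149 and 214 CPM in other MSC, 80.0 and 172 CPM in SMC and 14.1 and 30.1 CPM in Adamdec1 MSC. Adamdec1 MSC of SI were thus the lowest of the 4 mesenchymal and mesothelial groups, although cluster 4, 1 of the clusters of other MSC, held a similar 28.9 and 16.7 CPM in SI. Neural cells were the lowest group and held 10.5 and 5.52 CPM in LI and 1.95 and 4.39 CPM in SI.

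Neural cells were below every other group in all libraries for 6 of the 9 genes (*Bmp2*, *Bmp4*, *Bmp5*, *Grem1*, *Nog* and *Fst*), as they were for 11.8% of the 12581 genes. For *Bmp2* the margin was 0.905 against 0.883 CPM and is within counting error.

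To compare the share of cells with a UMI at 1 depth, each cell was thinned to 3000 UMIs, which left out 1187 LI cells (11.1%) and 192 SI cells (1.69%). *Fst* was found in 57.0% and 69.4% of Adamdec1 MSC in LI and in 3.41% and 7.07% of those in SI, while at most 1.46% of neural cells had a UMI. In the mesothelium, by contrast, *Fst* was found in 63.3% and 70.9% of LI cells and still in 49.2% and 44.0% of SI cells. Without thinning, the extremes over libraries were 7.91% and 78.3% in Adamdec1 MSC and 63.2% and 85.9% in mesothelium, with 1.21% to 8.17% in neural cells, whose median UMI count was 13632 against 9013 in Adamdec1 MSC.

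*Grem1* was found in 0.823% and 2.24% of SMC in LI and in 15.1% and 15.8% of SMC in SI, against at most 0.826% of neural cells. Mesothelial shares of *Grem1* were narrower, between 4.63% and 6.17%. *Bmp4* was detected in 18.4% to 22.1% of Adamdec1 MSC, 7.14% to 16.9% of mesothelial cells and 0% to 2.44% of neural cells. *Bmp3* reached 13.5% of Adamdec1 MSC in SI replicate 2 (3.56% in LI replicate 1) and no more than 1.49% of any other group. *Bmp7* was detected in 5.29% to 14.5% of neural cells and in at most 5.11% of cells in the other 4 groups. Shares for *Bmp2* and *Chrdl1* were at most 3.96% in the 5 groups, so most of their cells held no UMI of these genes at this depth, which limits detection and not expression. In the unnamed clusters the shares reached 8.47% for *Bmp2* (cluster 8) and 15.5% for *Chrdl1* (cluster 9), both in SI replicate 2. In cluster 8 they also reached 12.7% for *Bmp7* in SI replicate 2, 5.56% for *Bmp3* in LI replicate 2 and 94.4% for *Fst* in LI replicate 2.

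**Figure D2:**
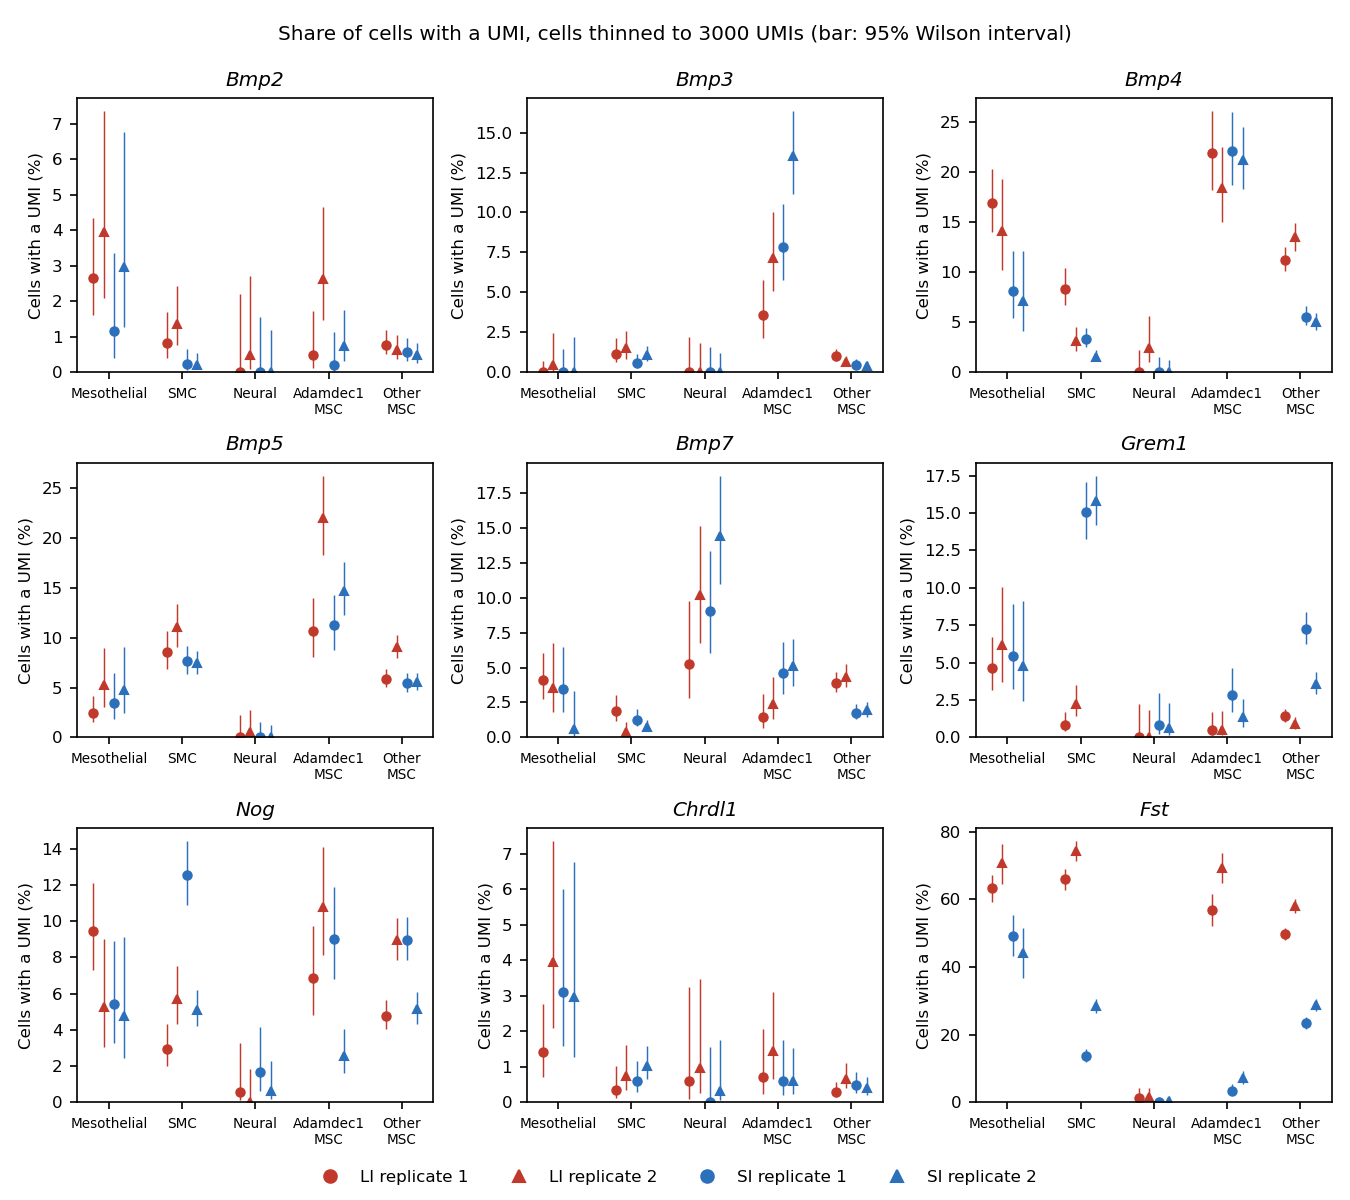
Percentage of cells with at least 1 UMI (vertical axis) after thinning to 3000 UMIs, by cell group (horizontal axis) and library (red, LI; blue, SI; circles, replicate 1; triangles, replicate 2). Bars are 95% Wilson intervals over the cells of a library and cover counting error only. *Fst* falls from 69.4% to 3.41% within Adamdec1 MSC between the extremes of LI and SI, and *Grem1* rises to 15.8% in SMC of SI.

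To test cell groups on genes that did not come from the clustering, cells were also gated on named markers that include none of the 9 genes. A gated cell had at least 4 of 10 markers of its class and at most 2 of each other class among mesothelial, SMC and neural. The comparison was with gated mesenchyme (2244 cells). These cells had *Pdgfra*, at least 2 other fibroblast markers, no UMI of *Adamdec1* and at most 2 markers of each class. Of them, 1585 came from other MSC, 283 from the Adamdec1 MSC cluster, 276 from unnamed clusters, 99 from SMC and 1 from mesothelium. Sums per library were compared with edgeR's quasi-likelihood test with library as a block. Log2 fold changes are the gated class over gated mesenchyme, with their SE.

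In gated mesothelium (844 cells), 5 of 9 genes passed an adjusted p of 0.05, against 32.3% of all genes tested. 3 were higher (background 17.5%), *Chrdl1* by 2.51 ± 0.45 (adjusted p = 0.00107), *Bmp2* by 1.93 ± 0.45 (adjusted p = 0.00544) and *Grem1* by 1.69 ± 0.28 (adjusted p = 0.000523). Lower were *Bmp3*, at −3.83 ± 0.68, and *Bmp5*, at −1.03 ± 0.21 (background 14.8%). These 5 calls were made under each alternative tried. *Bmp4* and *Fst* differed by −0.01 ± 0.15 and 0.27 ± 0.22 and were not called.

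In gated neural cells (1163 cells), all 9 genes passed, against 46.1% of genes. *Bmp7* was higher by 1.42 ± 0.23 (adjusted p = 0.00122) and *Chrdl1* by 2.30 ± 0.46 (adjusted p = 0.00391), where 22.4% of genes were higher, and 7 were lower (background 23.7%), from −2.51 ± 0.41 for *Bmp3* to −6.67 ± 0.36 for *Fst*. Without LI replicate 2 and without SI replicate 2 *Bmp2* did not pass the filter on low counts, and the other 8 genes were called. This gate took in 279 cells of clusters that the markers did not name. One of those clusters was led by neuronal genes such as *Cartpt* and *Stmn2*, and there *Chrdl1* stood at 2.69 and 20.2 CPM in LI and at 39.2 and 35.0 CPM in SI, against 2.25 ± 0.496 CPM (SD, n = 4) in the neural group. The test was not repeated without that cluster.

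Gated SMC (9337 cells) were a broad set, with 4411 cells from the SMC cluster, 3379 from other MSC, 946 from Adamdec1 MSC and 599 from unnamed clusters. Here 3 of 9 genes passed (7.33% of genes), with *Grem1* higher by 1.64 ± 0.26 (adjusted p = 0.00532, background 3.99%) and *Bmp4* and *Bmp7* lower by −0.72 ± 0.10 and −0.87 ± 0.14 (adjusted p = 0.00222 and 0.00556, background 3.33%). *Grem1* lost the call in DESeq2 (adjusted p = 0.306) and without SI replicate 1 (adjusted p = 0.103), and *Bmp7* without LI replicate 2 (adjusted p = 0.0583). The gated values of *Grem1* were 4.14 and 4.95 CPM in SMC of LI and 48.5 and 42.3 CPM in SMC of SI, against 4.42, 3.98, 14.9 and 8.41 CPM in gated mesenchyme, so the rise was carried by SI.

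The *Adamdec1* gate required a UMI of *Adamdec1* in a cell that otherwise passed the mesenchyme gate. It found only 56 cells, 55 of them in the Adamdec1 MSC cluster and 4 in LI replicate 1, while the gated mesenchyme held 283 cells of that cluster. Of 7 genes that passed the filter on low counts, 4 were called (3.26% of genes). *Bmp3* was higher by 3.32 ± 0.36, *Bmp4* by 1.23 ± 0.30 and *Bmp5* by 1.40 ± 0.35 (background 0.991%), and *Fst* was lower, at −1.33 ± 0.23 (background 2.27%). *Bmp3* alone kept the call under every alternative. The other 3 lost it in DESeq2, with at least 2 *Adamdec1* UMIs, and without SI replicate 2, which held 33 of the 56 cells, and *Bmp5* also lost it without LI replicate 2 (adjusted p = 0.0504). Without SI replicate 2 *Bmp4* differed by 0.02 ± 0.49, *Fst* by −0.72 ± 0.23 and *Bmp5* by 1.20 ± 0.50, so the difference in *Bmp4* rested on that library.

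**Figure D3:**
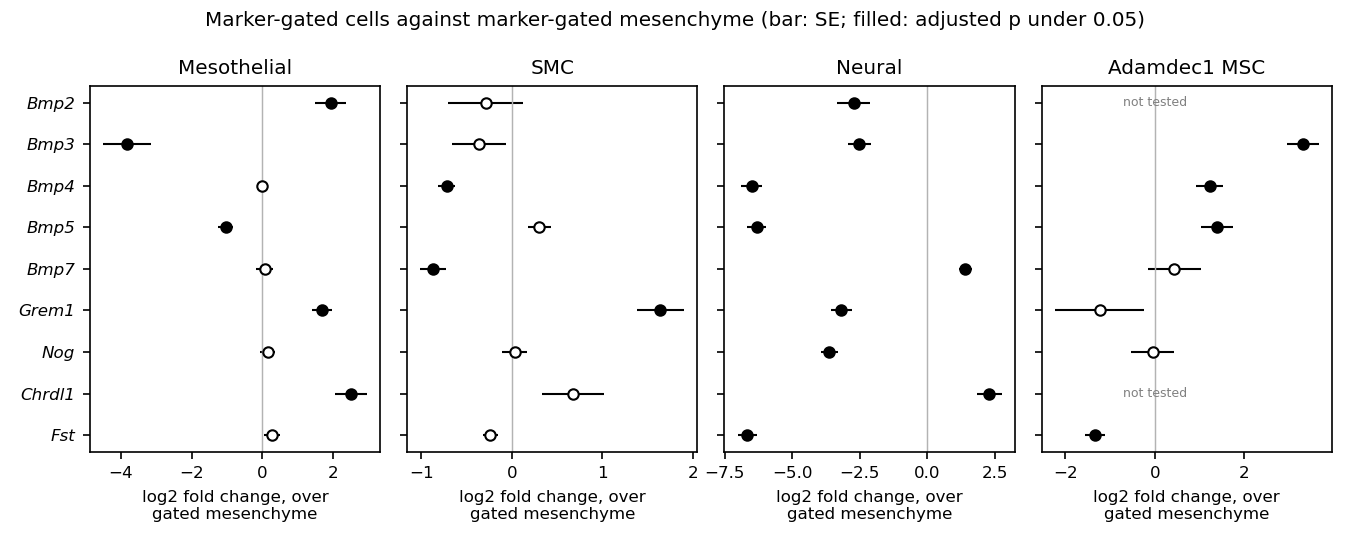
Log2 fold change (horizontal axis) of each gene in marker-gated cells over marker-gated mesenchyme, with bars of 1 SE (filled points, adjusted p under 0.05). Mesothelial cells are higher for *Bmp2*, *Grem1* and *Chrdl1*, neural cells for *Bmp7* and *Chrdl1*, SMC for *Grem1* and the 56 cells of the *Adamdec1* gate for *Bmp3*, *Bmp4* and *Bmp5*, and the horizontal scales differ between panels.

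SI and LI were then compared within each cell group, by edgeR's quasi-likelihood test on the 2 libraries of each region. Log2 fold changes are SI over LI, so a negative value is higher in LI. In other MSC, 3 of 9 genes were called, against 3.42% of genes. *Grem1* rose in SI by 2.62 ± 0.39 (adjusted p = 0.0108), *Fst* fell by 1.85 ± 0.27 (adjusted p = 0.00928) and *Bmp4* fell by 1.06 ± 0.18 (adjusted p = 0.0186). The median over the 9 genes was −0.38 and that over all genes 0.01. *Bmp7* (−0.99 ± 0.23, adjusted p = 0.0618) had both LI libraries above both SI libraries but was not called, and without SI replicate 2 *Bmp4* was not called either (adjusted p = 0.0637). SMC markers moved in the same direction as *Grem1*, with 1301 and 1920 CPM in other MSC of SI against 1072 and 1192 CPM in those of LI, and 6 of 10 higher in both SI libraries. Mesothelial markers moved with *Fst* and *Bmp4*, with 70.3 and 138 CPM in other MSC of LI and 34.8 and 53.4 CPM in those of SI, 7 of 10 higher in both LI libraries and *Msln* at 0, and 3 of 5 pericyte markers were higher in both SI libraries. The part of these lists in these results was not tested.

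In SMC, 2 of 9 genes were called (1.42% of genes), *Grem1* with 3.63 ± 0.39 (adjusted p = 0.00594) and *Fst* with −2.47 ± 0.36 (adjusted p = 0.0197). Both were called under every alternative. *Nog* (1.23 ± 0.45, adjusted p = 0.33) and *Bmp2* (−1.60 ± 0.44, adjusted p = 0.172) were not called, although both SI libraries lay below both LI libraries for *Bmp2*. Without SI replicate 1 *Bmp4* was called as well, and without SI replicate 2 *Nog* was. Summed SMC markers overlapped between regions, from 1830.5 to 6012 CPM in LI and from 5050 to 10789 CPM in SI. Mesothelial markers were low in SMC but moved with *Fst*, with 39.3 and 124 CPM in LI and 10.3 and 22.9 CPM in SI as the lowest and highest sums, and 7 of 10 higher in both LI libraries. Their part in the result was not tested. The median over the 9 genes was −0.27, against 0.01 over all genes.

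In Adamdec1 MSC, 1 of 9 genes was called at an adjusted p of 0.05 (3.50% of genes) and 5 at an unadjusted p of 0.05 (17.7% of genes). *Fst* fell by 4.91 ± 0.38 (adjusted p = 0.000102), and it was called in all 10 alternatives, with values from −5.54 to −4.47. Mesothelial markers summed to between 13.3 and 45.3 CPM in Adamdec1 MSC of LI and between 1.53 and 8.10 CPM in those of SI (5 of 10 higher in both LI libraries), and pericyte markers to between 32.5 and 72.5 CPM in LI and between 96.6 and 254 CPM in SI (3 of 5 higher in both SI libraries). The part of either list in these results was not tested. *Bmp3* (1.18 ± 0.29, adjusted p = 0.0579), *Bmp7* (1.17 ± 0.29, adjusted p = 0.0629) and *Grem1* (1.84 ± 0.54, adjusted p = 0.111) were higher in both SI libraries and not called. *Bmp4* (0.21 ± 0.19) and *Bmp5* (−0.18 ± 0.28) were not called. Without LI replicate 1, the shallowest library, 5 genes were called (*Bmp2*, *Bmp3*, *Bmp7*, *Grem1* and *Fst*) beside 6.81% of all genes. Without SI replicate 1 it was 4 beside 4.03%, without LI replicate 2 it was 2 beside 10.1%, and without SI replicate 2 it was 2 beside 2.99%. In such fits the spread comes from the other region's 2 libraries, and the lone library is assumed to vary like them. The median over the 9 genes was −0.18 and that over all genes 0.01.

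In mesothelium none of the 8 genes tested was called (1.10% of genes), with 2 at an unadjusted p of 0.05 (10.8% of genes). These were *Fst* (−0.96 ± 0.22, adjusted p = 0.0648) and *Bmp4* (−0.94 ± 0.24, adjusted p = 0.109), and DESeq2 called *Fst*. *Fst* was also called without LI replicate 1, and both were called without LI replicate 2. *Grem1* differed by −0.37 ± 0.27. SMC markers summed to between 607 and 930.02 CPM in mesothelium of LI and between 435 and 535 CPM in that of SI, with 6 of 10 higher in both LI libraries. Markers of interstitial cells of Cajal summed there to between 56.1 and 87.6 CPM in LI and between 24.9 and 39.5 CPM in SI (3 of 3 higher in both LI libraries), and fibroblast markers to between 1573 and 2612 CPM in LI and between 2713 and 3853 CPM in SI (4 of 8 higher in both SI libraries). The part of these lists was not tested. Among neural cells 3 genes passed the filter on low counts and none was called (0.42% of genes), with 2 at an unadjusted p of 0.05 (7.66% of genes), *Bmp7* (0.90 ± 0.24, adjusted p = 0.195) and *Fst* (−1.25 ± 0.51, adjusted p = 0.581). DESeq2 called none of the 3, and without LI replicate 2 both were called. The medians were −0.22 in mesothelium and −0.17 in neural cells, where the median of all genes was −0.00 in each. In every group but SMC the sums of interstitial cell of Cajal markers were higher in both LI libraries (at most 182 CPM), and other lists of other cell types that split by region, beside those already given, summed to at most 20.2 CPM.

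**Figure D4:**
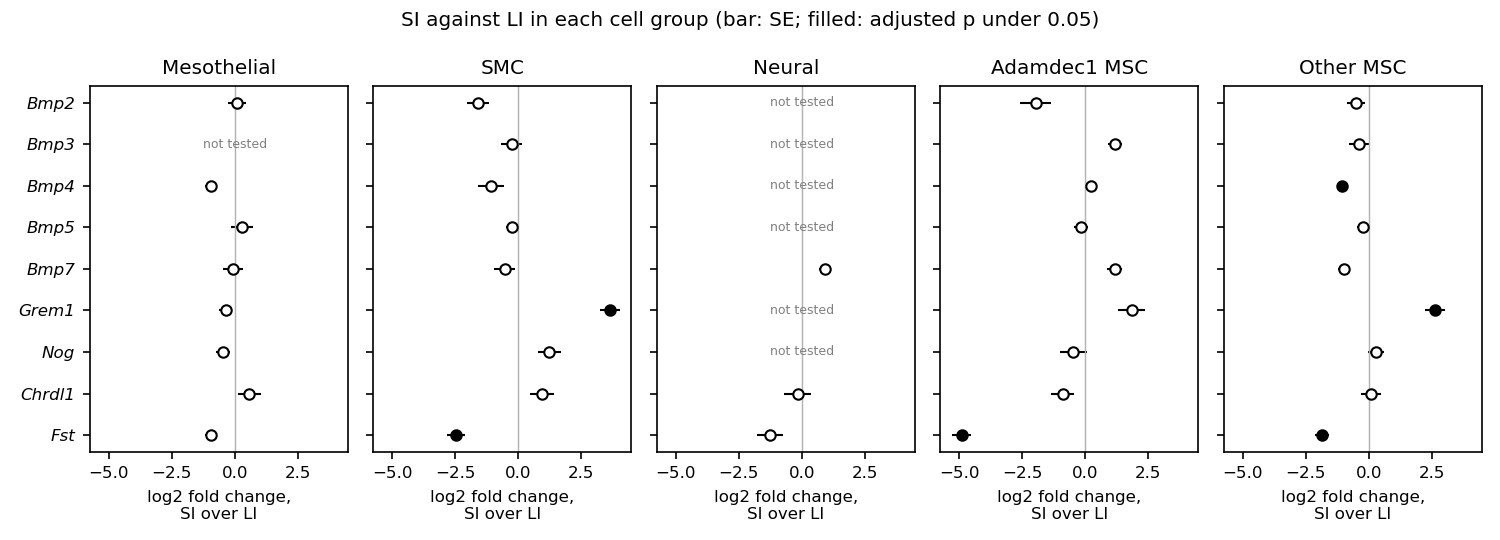
Log2 fold change of SI over LI (horizontal axis) for each gene in the 5 cell groups, with bars of 1 SE and filled points where the adjusted p was under 0.05. *Fst* lies below 0 in each group and furthest in Adamdec1 MSC (−4.91), and *Grem1* lies above 0 in SMC (3.63) and other MSC (2.62) but not in mesothelium (−0.37).

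Whether the regional difference depended on the cell group was tested as an interaction over all 20 sums with library as a block. 5 of 9 genes were called, against 11.7% of genes, namely *Fst* (adjusted p = 9.2e-06), *Grem1* (adjusted p = 0.000715), *Bmp7* (adjusted p = 0.000854), *Nog* (adjusted p = 0.0232) and *Bmp4* (adjusted p = 0.0372). Relative to other MSC, the SI over LI difference of *Fst* was lower by −3.05 ± 0.34 in Adamdec1 MSC (adjusted p = 5.47e-05). That of *Grem1* was lower by −2.98 ± 0.49 in mesothelium (adjusted p = 0.00325). For *Bmp7* it was higher by 2.15 ± 0.35 in Adamdec1 MSC (adjusted p = 0.00242) and by 1.85 ± 0.29 in neural cells (adjusted p = 0.000589), and for *Bmp4* it was higher by 1.33 ± 0.32 in Adamdec1 MSC (adjusted p = 0.0496). *Bmp7* thus ran in opposite directions, with both SI libraries lower in other MSC and higher in Adamdec1 MSC and neural cells. No single group differed for *Nog* from other MSC at an adjusted p of 0.05. *Fst*, *Grem1* and *Bmp7* were called without any 1 library, whereas *Bmp4* was called without SI replicate 1 alone (adjusted p = 0.158, 0.149 and 0.0731 without LI replicate 1, LI replicate 2 and SI replicate 2), and *Nog* was not called without LI replicate 1 (adjusted p = 0.214) or LI replicate 2 (adjusted p = 0.0551). Without LI replicate 2 *Bmp3* was called (adjusted p = 0.0113).

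The group of other MSC was made of 3 clusters, and SI and LI were also compared within each by a separate fit. Cluster 0 (6182 cells, led by *Igfbp5*, *Scx* and *Pitx1*) and cluster 2 (3059 cells, led by histone genes of dividing cells) had *Fst* differences of −1.53 ± 0.26 and −1.63 ± 0.24. Cluster 4 (1386 cells, led by *Wnt4*, *Anxa2* and *Tac2*) had −4.83 ± 0.42 (adjusted p = 0.00119), from 409 and 916 CPM in LI and 28.9 and 16.7 CPM in SI. The difference between clusters was not tested. In cluster 4 *Grem1* (1.10 ± 0.58) and *Bmp4* (−0.16 ± 0.26) were not called, while both were called in clusters 0 and 2. Of all genes tested, 0.417% were called in cluster 4, 4.56% in cluster 0 and 3.51% in cluster 2. Cluster 4 also had the steadiest *Nog* level, with 42.4, 53.7, 42.5 and 44.7 CPM over LI replicates 1 and 2, then SI replicates 1 and 2. In cluster 0 *Bmp3* was called as well (−3.10 ± 0.66, adjusted p = 0.0305), from 3.45 and 1.67 CPM in LI and 0.323 and 0.184 CPM in SI, and in cluster 2 *Bmp7* was (−1.26 ± 0.27, adjusted p = 0.0199). These single clusters were examined after the group values had been seen.

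**Figure D5:**
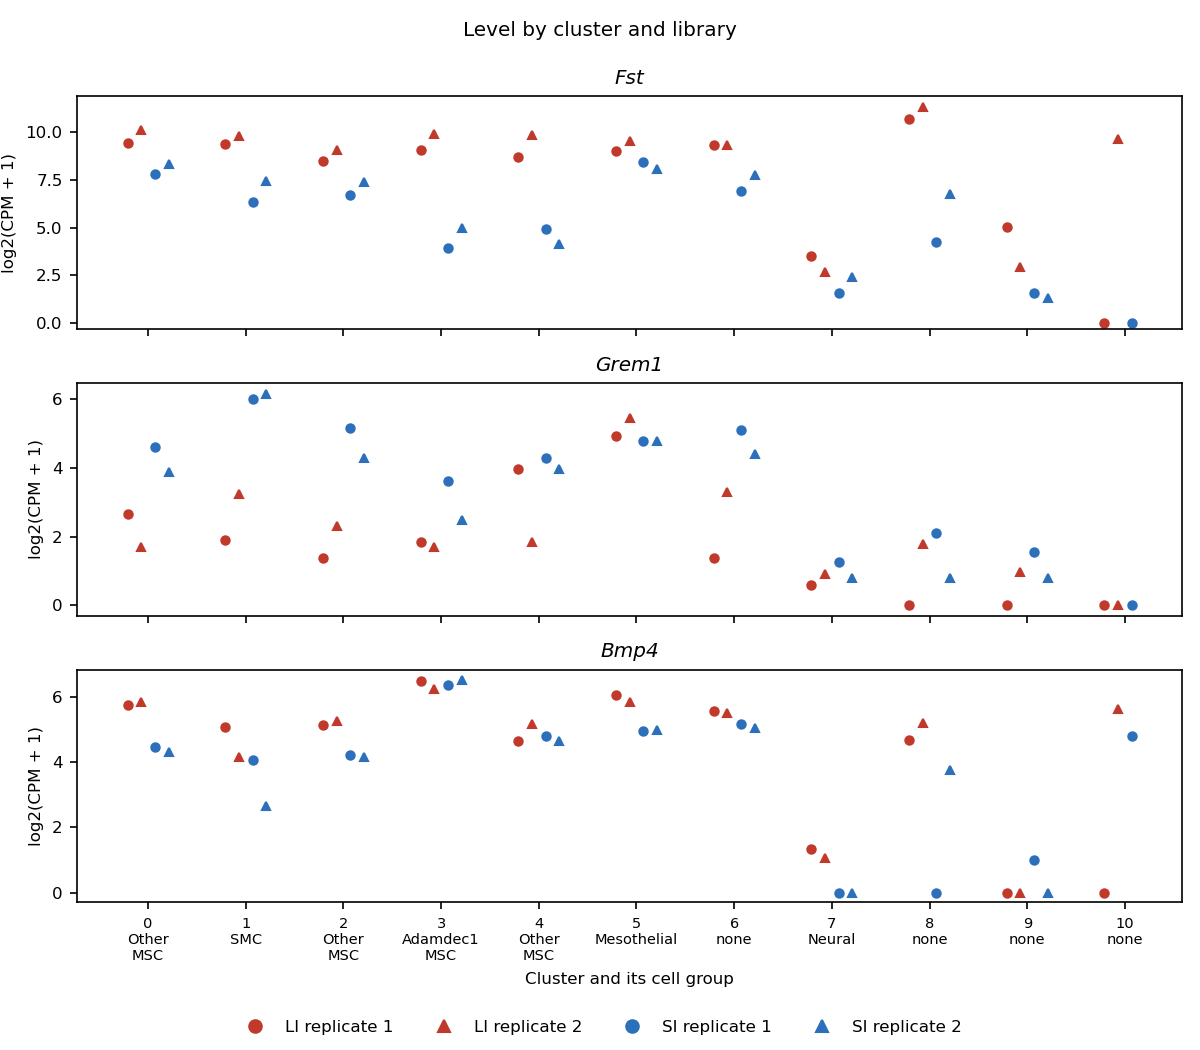
Level of *Fst*, *Grem1* and *Bmp4* as log2(CPM + 1) (vertical axis) in each cluster (horizontal axis, with its cell group), 1 point per library (red, LI; blue, SI; circles, replicate 1; triangles, replicate 2). *Fst* of SI is lowest, among the named clusters other than neural, in cluster 3 (Adamdec1 MSC) and cluster 4, and *Grem1* of SI is highest in cluster 1 (SMC). Cluster 10, of 158 cells with 154 from LI replicate 2, was empty in SI replicate 2. Its leading gene, *Hbb-bt*, was found in only 0.633% of its cells.

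Of quality measures, *Malat1*, a nuclear RNA, moved with region in the groups where *Fst* was called between regions. It stood between 16901 and 20455 CPM in SMC, Adamdec1 MSC and other MSC of LI and between 9921 and 13846 CPM in those of SI, and its part in the result was not tested. The median mitochondrial share of UMIs was between 2.37% and 4.64% in LI and between 3.22% and 4.84% in SI over the 5 groups. Which library was made with the 3′ and which with the 5′ kit is not stated, so kit and region cannot be told apart.

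The 49 other pathway genes were counted in the same tests. Between SI and LI, 4 of 39 tested were called in other MSC (3.42% of all genes), 3 of 32 in Adamdec1 MSC (3.50%), 2 of 35 in SMC (1.42%), 1 of 32 in mesothelium (1.10%) and 0 of 24 in neural cells (0.42%). Their median log2 fold changes lay between −0.16 and 0.08. None of the receptors, SMADs, tolloid proteases or *Id* and *Msx* response genes was among them. *Gdf10*, a ligand close to *Bmp3*, fell in other MSC (−3.10 ± 0.34), from 22.8 and 48.4 CPM in LI to 3.78 and 3.68 CPM in SI, and in SMC (−3.14 ± 0.32). *Gdf6* rose by 2.76 ± 0.56 in other MSC and by 2.20 ± 0.40 in mesothelium, where it went from 2.99 and 5.18 CPM to 19.0 and 16.6 CPM. *Gdf5* was counted at 0.67 and 2.03 CPM in other MSC of LI and at 0 UMIs in those of SI.

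In Adamdec1 MSC the antagonist *Nbl1* rose by 1.34 ± 0.30 and the ligand *Gdf11* fell (−1.26 ± 0.25), and in SMC the antagonist *Sostdc1* rose by 3.19 ± 0.57 from 0.45 and 0.25 CPM in LI to 2.42 and 3.14 CPM in SI. The pathway genes named here between SI and LI had an adjusted p (edgeR) between 0.00243 and 0.0448. In the interaction, 10 of 38 genes were called (11.7% of all genes), and 4 of them were the response genes *Id1*, *Id2*, *Id3* and *Id4*.

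Against gated mesenchyme, 20 of 36 pathway genes were called in mesothelium (8 higher and 12 lower), where 32.3% of all genes were. In SMC it was 6 of 37 (all lower), against 7.33% of all genes. In neural cells it was 23 of 34 (5 higher and 18 lower), against 46.1%, and in the *Adamdec1* gate 5 of 28 (1 higher and 4 lower), against 3.26%. The smallest adjusted p in mesothelium belonged to *Sostdc1*, higher by 4.63 ± 0.35, and *Gdf10*, lower at −5.74 ± 0.45. In neural cells they belonged to the inhibitory SMAD gene *Smad7* (−2.74 ± 0.11) and to *Fstl1* (−2.21 ± 0.10), and in SMC to *Smad7* (−0.51 ± 0.08) and the activin subunit *Inhba* (−1.41 ± 0.27). In the *Adamdec1* gate *Id2* was lower (−0.95 ± 0.19) and *Nbl1* higher (1.65 ± 0.39).

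Genes most like each member were sought by Pearson's r of log2(CPM + 1) over the 20 sums, among 8557 genes with a mean of at least 10 CPM. The sums share 4 libraries and 5 groups, so r is given as a description. *Bmp5* was most like *Gucy1a3* (r = 0.976), *Pcdh18* and *Fendrr*, *Bmp4* most like *Emid1* (r = 0.953), *Pla2g4a* and *Srpr*, and *Bmp3* most like *Nrg1* (r = 0.924), *Pja1* and *Has2*. *Bmp2* came with *Psd3* (r = 0.934), *Ets2* and *Serping1*, and *Bmp7* with *Pdlim1* (r = 0.892), *Smarca5* and *Tmem29*. For the antagonists the leading genes were *Susd4* (r = 0.903), *Rspo1* and *Mid1ip1* with *Grem1*, *Cxxc4* (r = 0.926), *1810011O10Rik* and *Sertad3* with *Nog*, *Slc35a2* (r = 0.881), *B3gnt9* and the mesothelial marker *Lrrn4* with *Chrdl1*, and *Malat1* (r = 0.965), *Cul7* and *Kifap3* with *Fst*. Between the members themselves r was highest for *Bmp4* with *Bmp5* (0.85) and lowest for *Bmp5* with *Bmp7* (−0.74).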

How the data were processed

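Single cells of the sorted embryonic gut were profiled on the 10x Genomics platform. The authors aligned reads to mm10 and counted UMIs with Cell Ranger (3.1.0), and the deposited matrices hold raw counts per gene and cell, which the authors analysed in Seurat. The submitters' protocol names 3′ v3 and 5′ kits without saying which library used which. The 9 genes, the 49 pathway genes and the marker lists were chosen with earlier results of these data known.

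Cells with at least 1000 genes and under 10% mitochondrial UMIs were kept. Scrublet's own threshold marked between 1 and 6 cells per library, so the top 0.8% per 1000 cells were removed (183 to 348 cells). Libraries were integrated in Seurat (5.3.0) on 30 components and clustered at a resolution of 0.3. A cluster was named mesothelial, SMC or neural where its 10 leading genes by fold held at least 3 markers of that class and none of another. Clusters with no marker of another class there and at least 3 fibroblast markers detected were other MSC, except where liver genes led. That exception left out cluster 8, and the liver genes were chosen after the clusters had been seen. Adamdec1 MSC were the cluster with the highest *Adamdec1* level among those with fibroblast markers and *Pdgfra*, and its leading genes held 1 pericyte marker. Raw counts were summed per library and cell group and tested with edgeR (4.0.16, TMM, filterByExpr, quasi-likelihood F test, Benjamini-Hochberg over all genes tested), and scripts were tested on simulated data. DESeq2 (1.42.0), no filter on low counts, a replicate block, a resolution of 0.6, G1 cells, other gates and thinning, and leaving out each library were alternatives. Named genes were the 9 genes, pathway genes called between SI and LI, the 2 pathway genes with the smallest adjusted p per gate, and the 3 genes most like each member. One gene that this rule names is not reported here. Gene models came from GENCODE M21, where 28416 of 28692 identifiers matched. Intervals and floors (95% Wilson, and 3 counts where a gene had 0) cover counting error only.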

Additional observations from a re-analysis of the deposited data

Results flagged for a closer look

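The difference between SI and LI depended on the cell group for 5 of the 9 genes, by the test of the interaction itself in edgeR, against 11.7% of all genes. The adjusted p was 9.2e-06 for *Fst*, 0.000715 for *Grem1*, 0.000854 for *Bmp7*, 0.0232 for *Nog* and 0.0372 for *Bmp4*. For *Bmp7*, both SI libraries lay above both LI libraries in neural cells and in Adamdec1 MSC, and below them in other MSC. With 1 library left out, between 3 and 5 genes were called. *Bmp4* lost the call in 3 of 4 such fits and *Nog* in 2 of 4, and without LI replicate 2 *Bmp3* gained one (adjusted p = 0.0113).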

How the results depend on the processing

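Of 217 alternative values of a called member, 201 kept direction and call, 16 kept direction but not the call, and none reversed. DESeq2 called 2 genes between SI and LI in Adamdec1 MSC (3.01% of all genes), 1 in mesothelium (1.07%) and 1 in the *Adamdec1* gate (0.971%). With no filter on low counts, 5 genes were called in Adamdec1 MSC (6.59%), 5 in SMC (5.08%), 2 in mesothelium (2.56%), 1 in neural cells (2.15%) and 5 in gated SMC (8.07%). A resolution of 0.6 and G1 cells each gave 2 in Adamdec1 MSC (3.56% and 3.14%), and G1 cells gave 1 in mesothelium (1.55%). At least 2 *Adamdec1* UMIs gave 1 in that gate (0.849%), and cluster 4 alone gave 1 (0.417%). The cause was not tested. Without 1 library in turn, the number of genes called ranged from 2 to 4 in other MSC (4.23% to 11.7% of all genes), 2 to 5 in Adamdec1 MSC (2.99% to 10.1%), 2 to 3 in SMC (1.40% to 7.26%), 0 to 2 in mesothelium (1.07% to 10.2%), 0 to 2 in neural cells (0.545% to 12%) and 3 to 5 in the interaction (2.87% to 9.54%). The share of all genes was highest without LI replicate 2 in each of the 5 groups. In the gates it was 5 in mesothelium each time (22.2% to 29.7% of all genes), 2 to 4 in SMC (2.36% to 7.66%), 8 to 9 in neural cells (33.9% to 41.0%) and 1 to 4 in the *Adamdec1* gate (0.781% to 3.18%).

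Replicate numbers were shared between regions, with 2 pairs and no label that ties them to an experiment. Deviations of same-numbered samples correlated at 0.231 to 0.409. With the replicate block 5 genes were called in Adamdec1 MSC (13% of all genes), 5 in SMC (9.54%), 2 in mesothelium (6.98%), 1 in neural cells (3.11%) and 4 in other MSC (7.29%), so more of all genes were called there too.

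Between marker gates the log2 ratio of Adamdec1 MSC to SMC turned to −0.30 for *Bmp5*, and that of neural cells to Adamdec1 MSC was 1.85 for *Bmp7*, which G1 cells put at 1.67. Unthinned shares averaged 7.34% (*Bmp2*) and 6.00% (*Chrdl1*) in mesothelium, 71.8% there for *Fst*, 36.3% in neural cells for *Bmp7*, and 21.6% (*Bmp3*), 42.3% (*Bmp4*), 37.4% (*Bmp5*) and 17.4% (*Nog*) in Adamdec1 MSC. Thinned to 2000 UMIs, *Bmp4* stood at 14.4%.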
